A study of Mus musculus with 18 samples.

Results

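Embryonic fibroblasts of the mouse (MEFs) without Tdg were compared with MEFs that kept 1 working copy of it, on 6 of the 18 arrays of a study of Tdg in fibroblasts, embryonic stem cells and neuronal precursors. The 6 arrays were those whose titles name MEFs, 3 with the Tdg-/- genotype and 3 with the Tdg+/- genotype. Both lines were immortalised with SV40 and grown in DMEM with serum and antibiotics, and neither was treated. Each genotype was 1 clone, clone 9 for Tdg-/- and clone 4 for Tdg+/-, so that clone and genotype cannot be told apart here. Total RNA, 13 µg per array, was labelled with biotin and hybridised to Affymetrix arrays, which read a gene through 1 or more groups of probes (probe sets). Whether the 3 samples of a genotype were separate cultures is not in the labels; the p-values rest on the spread among these samples and that spread may be technical. Levels are log2 values as deposited, and a difference of 1 is a 2-fold difference in signal. With 3 arrays per genotype their number limits the precision.

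Tdg encodes thymine DNA glycosylase, which cuts thymine and uracil out of mismatches with guanine and also removes the oxidised forms of 5-methylcytosine during active DNA demethylation. It is required in mouse development, and promoters rich in CpG dinucleotides are among the sequences where its loss has been studied. Fibroblasts of the embryo secrete the collagens, elastic fibres and matricellular proteins of connective tissue, bind that matrix through integrins and other surface receptors, and answer growth factors such as PDGF, FGF and IGF. The SV40 T antigen inactivates p53 and the retinoblastoma proteins, so immortalised MEFs lack the cell cycle controls that these provide.

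Over all, 475 of 12394 genes passed the threshold of the limma test (Benjamini-Hochberg adjusted p under 0.05), a share of 3.83%; 312 were higher (2.52%) and 163 lower (1.32%) in Tdg-/- MEFs. Genes were put into classes by symbol, as secreted, surface, metabolic, signalling, cytoskeletal or nuclear, and 7206 fell into none. The share of genes past the threshold was 11.4% of 709 secreted genes, 6.16% of 341 cytoskeletal genes, 5.98% of 702 nuclear genes, 4.99% of 1343 surface genes, 4.78% of 1068 metabolic genes, 4.29% of 1025 signalling genes and 2.35% of the genes of no class. At least 2-fold changes were seen in 147 genes (1.19%). In 4893 genes (39.5%) the Tdg-/- arrays did not overlap the Tdg+/- arrays, and all 475 genes past the threshold were among them. With all arrays and the values as deposited, secreted genes were the 1 class with more falls than rises, 52 lower and 29 higher, but among changes of at least 2-fold they were even, with 20 higher and 20 lower, and signalling genes had 7 higher and 9 lower. Of the 51 metabolic genes past the threshold 43 were higher and 8 lower, while the median log2 fold change of all 1068 was 0.02, against -0.02 over all genes. The plot of shares by class shows these counts, with all arrays and without 1 array that stood apart. With quantile normalization over the arrays the split over all genes was 335 higher and 268 lower, against 312 and 163 as deposited.

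**Figure D1:**
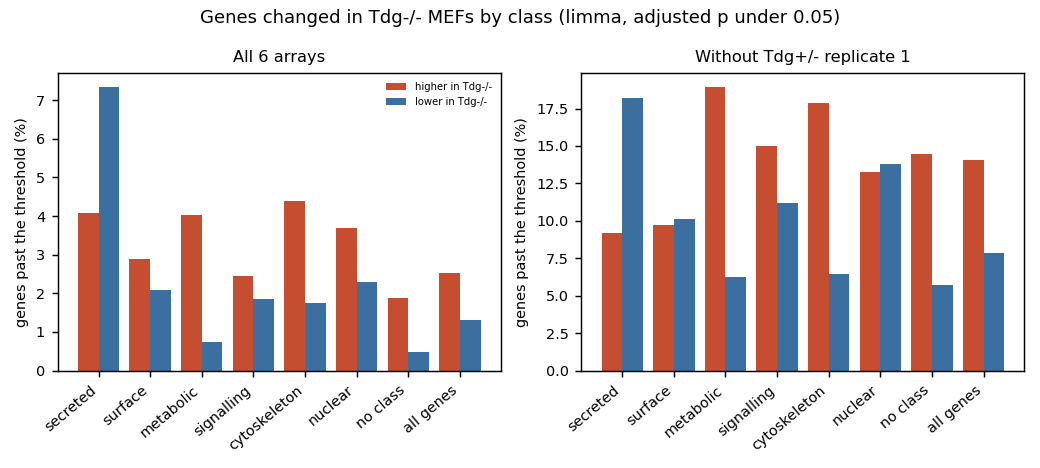
Percentage of the genes of each class past the limma threshold (adjusted p under 0.05), higher (red) or lower (blue) in Tdg-/- than in Tdg+/- MEFs, with all 6 arrays (left) and without Tdg+/- replicate 1 (right; the axes differ). Secreted genes have more falls than rises on both sides (52 lower and 29 higher with all arrays), and metabolic genes more rises than falls (43 higher and 8 lower).

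That array was Tdg+/- replicate 1. It correlated at 0.962 and 0.953 with Tdg+/- replicates 2 and 3, which correlated with each other at 0.997, and the Tdg-/- arrays correlated among themselves at 0.996 to 0.998. Its values were drawn together: their SD was 1.70, against 1.81 to 1.90 on the other 5 arrays, and against replicates 2 and 3 it read a median of 0.256 higher in the second of 10 equal bins of genes, ordered by level, and 0.327 lower in the eighth (median difference -0.327). The median log2 fold change of Tdg-/- over Tdg+/- MEFs moved with it, from -0.19 in the second bin to 0.19 in the ninth, and from -0.09 to 0.08 in the same bins without that array; its part in the results was not tested. Without Tdg+/- replicate 1, 2722 genes passed (22.0%), 1746 higher (14.1%) and 976 lower (7.87%), including all 475. Without Tdg+/- replicate 2 the count was 129, without replicate 3 it was 391, and without Tdg-/- replicates 1, 2 and 3 it was 116, 111 and 95. The 90 genes that passed whichever array was left out, 0.726% of those tested, are described first in each class; a fold change and its adjusted p are from all 6 arrays unless stated.

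**Figure D2:**
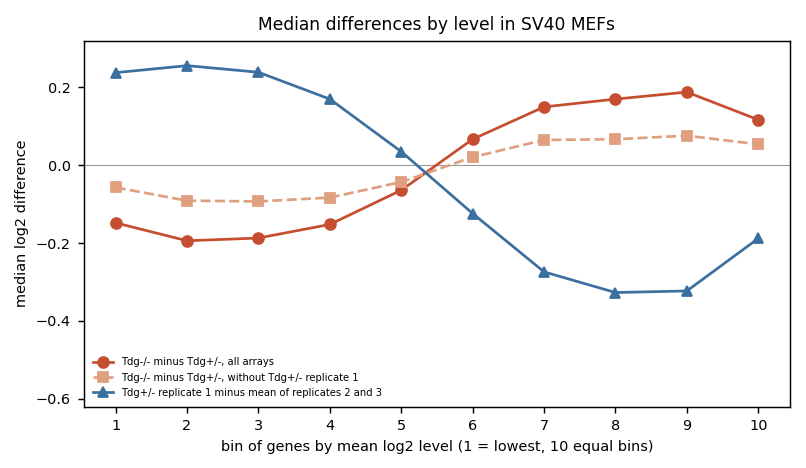
Median log2 difference over the genes of each of 10 bins by mean level, for Tdg-/- minus Tdg+/- MEFs with all arrays (circles) and without Tdg+/- replicate 1 (squares), and for Tdg+/- replicate 1 minus the mean of replicates 2 and 3 (triangles). Replicate 1 reads high in the low bins (0.256 in the second) and low in the upper ones (-0.327 in the eighth), and the genotype difference runs the other way.

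The labels were checked on Tdg itself, which 3 probe sets read, each annotated to Tdg and to pseudogenes of it. The probe set with the largest fall read 6.42, 6.12 and 6.48 in Tdg-/- MEFs, against 8.87, 8.87 and 9.24 in Tdg+/- MEFs, which is a log2 difference of -2.65 ± 0.15 (SE; adjusted p = 0.000726 over all 22690 probe sets). The other 2 had log2 fold changes of -1.79 (SE 0.15, adjusted p = 0.00351) and -2.26 (SE 0.22, adjusted p = 0.00543), the last with an adjusted p of 0.0524 without Tdg-/- replicate 3. In each probe set every Tdg-/- array lay below every Tdg+/- array. The labels do not name the deleted part of Tdg, and a probe set outside it would check nothing.

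Markers of the labelled cell type were present. Of 18 fibroblast markers, 16 had a mean above 6.29 in both genotypes, the median of 33 olfactory receptor probe sets, which stands here for genes that fibroblasts do not express. Where 1 genotype lies below that level, a fold is one of signal and the size of the change is not established. Lum lay below it in both genotypes and Fap in Tdg-/- MEFs. The mean level over the list was 10.36 to 10.44 on the Tdg-/- arrays and 10.71 to 10.86 on the Tdg+/- arrays, and the median log2 fold change was -0.39, against -0.02 over all genes. Of the abundant markers, 3 that did not pass were the following: the intermediate filament gene Vim read 13.36 ± 0.03 in Tdg-/- MEFs and 13.27 ± 0.01 in Tdg+/- MEFs (log2 level, SD, n = 3 each), the collagen gene Col1a1 12.99 ± 0.09 in Tdg-/- MEFs and 12.83 ± 0.00 in Tdg+/- MEFs (log2 level, SD, n = 3 each), and the matrix glycoprotein gene Sparc 13.26 ± 0.06 in Tdg-/- MEFs and 13.26 ± 0.04 in Tdg+/- MEFs (log2 level, SD, n = 3 each). Col3a1, Col6a2, Col1a2, Dcn, Fap, Pdgfra and Thy1 fell, none rose, and 11 did not pass. Col1a2, Dcn and Fap did not pass when any 1 of Tdg-/- replicates 1, 2 and 3 and Tdg+/- replicate 2 was left out (adjusted p up to 0.137, for Dcn).

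Markers of other cell types passed in 6 lists, 1 in each except the neural list, with 3. Krt19 fell among 9 epithelial markers, of which Cdh1, Esrp1, Krt14 and Krt18 lay below 6.29 in both genotypes, and the list averaged 6.37 to 6.58 on the Tdg-/- arrays and 6.70 to 7.09 on the Tdg+/- arrays. Kdr fell among 8 endothelial markers, of which 6, with Pecam1, Cdh5 and Tek among them, lay below 6.29 in both. Cd14 rose among 8 macrophage markers, with Ptprc and Itgam below 6.29 in both, and Cnn1 fell among 6 of smooth muscle. Sox2, Gpm6b and Nes rose among 9 neural markers, whose mean was 7.48 to 7.55 on the Tdg-/- arrays and 6.67 to 7.03 on the Tdg+/- arrays. The other 6 did not pass, and the median log2 fold change of the list was 0.01. Nes rose in 1 of its 3 probe sets. Sox1 lay below 6.29 in both genotypes and Sox2 in Tdg+/- MEFs. Col2a1 rose among 6 markers of cartilage and bone, while none of the markers of skeletal muscle, adipocytes or Schwann cells and neural crest passed. The part of other cells in the results was not tested, and in bulk RNA fewer cells of a type and less RNA per cell cannot be told apart. Cd14 did not pass when any 1 of Tdg-/- replicates 1, 2 and 3 and Tdg+/- replicate 2 was left out (adjusted p up to 0.119). Kdr did not pass when any 1 of Tdg-/- replicates 1, 2 and 3 and Tdg+/- replicates 2 and 3 was left out (adjusted p up to 0.198). Krt19 did not pass when any 1 of Tdg-/- replicate 2 and Tdg+/- replicate 2 was left out (adjusted p up to 0.0584). Cnn1 did not pass when Tdg-/- replicate 3 was left out (adjusted p = 0.0504).

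Promoters of 5 genes that passed whichever array was left out are shown, for a view of CpG content: 3 of genes that fell (Sfrp2, Gjb2 and Ptn) and 2 of genes that rose (Slc22a23 and Pdk4). Each is the 250 bases before the RefSeq transcript start on GRCm38.p6, 5′ to 3′ on the gene's strand, with CpG dinucleotides in capitals.
Sfrp2 promoter, chr3:83766071-83766320, plus strand: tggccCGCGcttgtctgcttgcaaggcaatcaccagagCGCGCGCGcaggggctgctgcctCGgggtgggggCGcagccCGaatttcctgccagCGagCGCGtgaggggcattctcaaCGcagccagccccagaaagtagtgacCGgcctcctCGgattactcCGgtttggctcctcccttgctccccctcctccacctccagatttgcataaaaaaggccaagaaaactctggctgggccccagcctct
Gjb2 promoter, chr14:57104703-57104952, minus strand: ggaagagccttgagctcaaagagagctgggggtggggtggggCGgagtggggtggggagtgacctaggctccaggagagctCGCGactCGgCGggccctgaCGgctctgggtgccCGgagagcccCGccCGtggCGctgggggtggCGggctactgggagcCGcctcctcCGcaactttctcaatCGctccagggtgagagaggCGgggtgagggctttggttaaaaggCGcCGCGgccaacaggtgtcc
Ptn promoter, chr6:36810180-36810429, minus strand: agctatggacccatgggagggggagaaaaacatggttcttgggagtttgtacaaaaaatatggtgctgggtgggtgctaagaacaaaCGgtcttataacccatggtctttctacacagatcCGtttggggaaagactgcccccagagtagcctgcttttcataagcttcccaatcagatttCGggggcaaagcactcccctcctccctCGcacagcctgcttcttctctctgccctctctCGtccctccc
Slc22a23 promoter, chr13:34345219-34345468, minus strand: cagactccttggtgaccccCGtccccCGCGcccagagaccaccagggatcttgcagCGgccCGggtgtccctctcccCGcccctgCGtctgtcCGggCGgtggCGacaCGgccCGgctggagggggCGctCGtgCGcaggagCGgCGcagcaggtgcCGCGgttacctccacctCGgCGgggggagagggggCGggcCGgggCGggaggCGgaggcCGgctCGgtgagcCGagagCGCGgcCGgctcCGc
Pdk4 promoter, chr6:5496279-5496528, minus strand: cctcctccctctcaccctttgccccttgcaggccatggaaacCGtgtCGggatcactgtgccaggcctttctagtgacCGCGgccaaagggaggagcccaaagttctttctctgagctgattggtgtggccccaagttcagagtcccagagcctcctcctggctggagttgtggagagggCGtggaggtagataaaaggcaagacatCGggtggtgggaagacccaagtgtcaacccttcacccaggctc

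Of these windows that of Slc22a23 held the most CpG dinucleotides, 32, against 16 for Sfrp2, 18 for Gjb2, 5 for Ptn and 6 for Pdk4. The genes were picked after the calls were seen, so these windows do not show how CpG content and direction go together. Over all tested genes a single start was listed for 7936, whose windows held a median of 14 CpG, and 64.0% of them held at least 10. Among 188 genes that rose the median was 16 and 76.6% held at least 10. Among 93 genes that fell the median was 12 and 57.0% held at least 10. For the genes that passed whichever array was left out the medians were 16 over 25 genes that rose and 7.5 over 22 that fell. Secreted genes have fewer CpG as a class, with a median of 6 over 461 windows. The 30 of them that fell had a median of 8.5 and the 12 that rose a median of 14. These counts describe the windows and were not tested, and methylation was not measured on these arrays.

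Secreted genes fell 52 times and rose 29 times of 709, and 17 falls and 9 rises passed whichever array was left out. Of the 52 falls 17 were of matricellular and matrix proteins, 6 of growth factors and 5 of collagens, and of the 29 rises 5 were of growth factors. By size, the Wnt modulator gene Sfrp2 had the largest fall and the collagen gene Col2a1 and the growth factor gene Pdgfb the largest rises of the class. At the 2-fold limit 20 rose and 20 fell, so the excess of falls lay in smaller changes. The class had a median log2 fold change of -0.21, against -0.02 over all genes, and of -0.11 without Tdg+/- replicate 1; its median level was 6.88, against 7.70 for all genes, in the range where that array read high. Without that array 129 secreted genes fell and 65 rose. Under quantile normalization 59 fell and 33 rose.

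Matricellular and matrix proteins fell 17 times and rose 2 times among 73 measured (26.0% called, against 3.83% over all genes). Smoc2, a calcium-binding matricellular protein, read 6.51, 6.40 and 6.30 in Tdg-/- MEFs, against 8.99, 9.60 and 9.54 in Tdg+/- MEFs (log2), and Postn, which encodes periostin, a matrix protein of collagen-rich tissue, read 7.32, 7.51 and 7.23 in Tdg-/- MEFs, against 10.06, 10.61 and 10.16 in Tdg+/- MEFs. Between the groups lay a gap of 2.49 for Smoc2 and of 2.56 for Postn, each wider than the range of either group. Mgp, matrix Gla protein, an inhibitor of calcification, read 10.18, 10.19 and 10.07 in Tdg-/- MEFs, against 11.72, 11.89 and 11.74 in Tdg+/- MEFs, a fall of 3.11-fold (adjusted p = 0.000393). Nid2, a basement membrane protein that joins laminin and collagen networks, read 8.79, 8.69 and 8.73 in Tdg-/- MEFs, against 10.20, 10.89 and 10.89 in Tdg+/- MEFs, a fall of 3.8-fold (adjusted p = 0.00431). For Nid2, Tdg+/- replicate 1 was the lowest of its group, and without it the log2 fold change was -2.15, against -1.92 with it. Lgals3bp, a secreted binding partner of galectins, fell 3.47-fold (adjusted p = 0.000435), and Ccn3, a matricellular protein of the CCN family, fell 3.19-fold (adjusted p = 0.00131). Aspn, a small leucine-rich proteoglycan that binds collagen, fell 4.41-fold (adjusted p = 0.000932), at 4.83 ± 0.02 in Tdg-/- MEFs and 6.97 ± 0.28 in Tdg+/- MEFs (log2 level, SD, n = 3 each), and so lay under the olfactory receptor median of 6.29 in Tdg-/- MEFs.

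Elastic fibre genes were among these falls. A list of 19 genes of elastic fibres and their assembly was drawn up after the calls were seen, so it is described and not tested. Fbn1, Efemp2 and Emilin2 were not measured. Of the 16 measured, 8 fell, none rose and 8 did not pass, with a median log2 fold change of -0.56 against -0.02 over all genes. Without Tdg+/- replicate 1, 12 fell and 2 rose. Mfap4, a microfibril-associated protein, fell 2.61-fold (adjusted p = 0.00127), and Fbln5, which tethers elastin to microfibrils, read 10.81, 10.91 and 10.83 in Tdg-/- MEFs, against 11.79, 11.80 and 11.80 in Tdg+/- MEFs, a fall of 1.92-fold (adjusted p = 0.00218). Both passed whichever array was left out. Mfap5 fell 2.55-fold (adjusted p = 0.00635), the fibrillin gene Fbn2 2.46-fold (adjusted p = 0.0055), Fbln2 1.72-fold (adjusted p = 0.00792), Ltbp2 1.65-fold (adjusted p = 0.0407) and Mfap2 1.45-fold (adjusted p = 0.0241). Lox, the enzyme that crosslinks elastin and collagen, fell 1.6-fold (adjusted p = 0.0245), with 2 of its 3 probe sets in that direction. Eln, the gene of elastin itself, had a log2 fold change of -0.49 with an SE of 0.19 (adjusted p = 0.198), and Efemp1 and Ltbp3 were on the other side, at 1.06 with an SE of 0.24 (adjusted p = 0.0658) and 0.92 with an SE of 0.21 (adjusted p = 0.0735), none past the threshold. Ltbp2 and Lox did not pass when any 1 of Tdg-/- replicates 1, 2 and 3 and Tdg+/- replicates 2 and 3 was left out (adjusted p up to 0.203, for Ltbp2). Fbln2 did not pass when any 1 of Tdg-/- replicates 1, 2 and 3 was left out (adjusted p up to 0.0638). Mfap2 did not pass when any 1 of Tdg-/- replicates 1, 2 and 3 and Tdg+/- replicate 2 was left out (adjusted p up to 0.163). Mfap5 did not pass when any 1 of Tdg-/- replicates 1 and 3 was left out (adjusted p up to 0.0599). Fbn2 did not pass when Tdg-/- replicate 3 was left out (adjusted p = 0.0504).

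Of 36 collagen chains 5 fell and 1 rose (16.7% called, against 3.83% over all genes). Their median log2 fold change was -0.26, against -0.02 over all genes. Col6a2 read 10.35, 10.39 and 10.05 in Tdg-/- MEFs, against 11.55, 11.59 and 11.51 in Tdg+/- MEFs, and Col6a1, whose chain assembles with it in beaded filaments, fell 1.84-fold (adjusted p = 0.0055), while Col6a3 had a log2 fold change of -0.35 with an SE of 0.11 (adjusted p = 0.134) and did not pass. The fibril-forming Col3a1 fell 2.21-fold (adjusted p = 0.00504), Col1a2 fell 1.57-fold (adjusted p = 0.017) and Col5a1 1.44-fold (adjusted p = 0.0397). Col2a1, the collagen of cartilage, went the other way: it read 10.01, 9.78 and 9.94 in Tdg-/- MEFs, against 8.02, 8.14 and 7.66 in Tdg+/- MEFs, a rise of 3.9-fold (adjusted p = 0.00127) with a gap of 1.63 between the groups. Basement membrane genes, a list of 21 also drawn up after the calls were seen, had no common direction: of 20 measured, Nid2, Lama4 and Lamb2 fell, Lamb1 and Agrn rose, and 15 did not pass, with a median of -0.06. When all probe sets were fitted, neither Lamb1 nor Lamb2 passed. Col5a1, Lama4, Lamb2 and Agrn did not pass when any 1 of Tdg-/- replicates 1, 2 and 3 and Tdg+/- replicates 2 and 3 was left out (adjusted p up to 0.206, for Lamb2). Col1a2 and Lamb1 did not pass when any 1 of Tdg-/- replicates 1, 2 and 3 and Tdg+/- replicate 2 was left out (adjusted p up to 0.212, for Lamb1). Col6a1 did not pass when Tdg-/- replicate 3 was left out (adjusted p = 0.0504).

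Growth factors fell 6 times and rose 5 times among 66 (16.7% called, against 3.83% over all genes). Ptn, pleiotrophin, a heparin-binding growth factor, read 7.87, 7.88 and 7.85 in Tdg-/- MEFs, against 10.55, 10.65 and 10.55 in Tdg+/- MEFs, a fall of 6.56-fold (adjusted p = 5.42e-05) with a gap of 2.67, and both of its probe sets fell. Its relative Mdk had a log2 fold change of -0.51 with an SE of 0.12 (adjusted p = 0.0746) and did not pass. Igf2, a fetal growth factor, fell 3.26-fold (adjusted p = 0.000393), and both IGF binding proteins that passed, of 9 measured, rose. Igfbp2 read 11.91, 12.03 and 12.01 in Tdg-/- MEFs, against 10.27, 10.40 and 10.31 in Tdg+/- MEFs, a rise of 3.15-fold (adjusted p = 0.000393), and Igfbp7 rose 2.2-fold (adjusted p = 0.00186), with 2 of its 3 probe sets in that direction. Igfbp3, Igfbp4, Igfbp5 and Igfbp6 did not pass, with log2 fold changes of 0.28, 0.16, -0.52 and -0.18. Gdnf, a ligand of the receptor RET, rose 2.34-fold (adjusted p = 0.002). Igf1 rose 1.82-fold (adjusted p = 0.0278), while Vegfd fell 1.85-fold (adjusted p = 0.0261), Fgf5 1.67-fold (adjusted p = 0.0238) and Fgf10 1.5-fold (adjusted p = 0.0407), with Fgf5 and Fgf10 below 6.29 in Tdg-/- MEFs. Fgf5 and Fgf10 did not pass when any 1 of Tdg-/- replicates 1, 2 and 3 and Tdg+/- replicate 2 was left out (adjusted p up to 0.221, for Fgf10). Igf1 and Vegfd did not pass when any 1 of Tdg-/- replicates 1, 2 and 3 and Tdg+/- replicates 2 and 3 was left out (adjusted p up to 0.161, for Vegfd). Igf1 did not pass with quantile normalization (adjusted p = 0.0859). Igf1 did not pass with cyclic loess (adjusted p = 0.0816).

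Ligands and receptors of the PDGF family, which drive the growth of mesenchymal cells, moved apart. Pdgfb read 9.91, 9.91 and 9.80 in Tdg-/- MEFs, against 8.17, 7.73 and 7.86 in Tdg+/- MEFs, a rise of 3.88-fold (adjusted p = 0.000836), and Pdgfa rose 2.07-fold (adjusted p = 0.00698). Pdgfra, the receptor that binds both of these, read 6.95, 6.99 and 6.65 in Tdg-/- MEFs, against 8.11, 8.13 and 8.04 in Tdg+/- MEFs, a fall of 2.35-fold (adjusted p = 0.0031). Pdgfrb had a log2 fold change of 1.12 with an SE of 0.24 (adjusted p = 0.0592) and did not pass, nor did it without any 1 of Tdg-/- replicates 1, 2 and 3 and Tdg+/- replicate 2 (adjusted p up to 0.262). Pdgfrb passed without Tdg+/- replicate 1 (log2 fold change 0.86, adjusted p = 9.95e-05), without Tdg+/- replicate 3 (adjusted p = 0.0453), with quantile normalization (0.0477), with cyclic loess (0.0266), with genes under the median level left out (0.032) and with a replicate block (0.0392). Pdgfd fell 3.67-fold (adjusted p = 0.0385), and Pdgfc did not pass at 0.25 with an SE of 0.10 (adjusted p = 0.201). The Tdg-/- mean of Pdgfd lay below 6.29. Over the 6 genes 2 rose, 2 fell and 2 did not pass (66.7% called, against 3.83% over all genes). These 6 were listed after the calls were seen. Pdgfd did not pass when any 1 of Tdg-/- replicates 1, 2 and 3 and Tdg+/- replicates 2 and 3 was left out (adjusted p up to 0.2). Pdgfa did not pass when any 1 of Tdg-/- replicates 2 and 3 and Tdg+/- replicate 2 was left out (adjusted p up to 0.0615). Pdgfd did not pass with quantile normalization (adjusted p = 0.0692). Pdgfd did not pass with cyclic loess (adjusted p = 0.0629).

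Ligands of other pathways changed in smaller numbers. Of 35 Wnt ligands and antagonists 4 passed (11.4%, against 3.83% over all genes). Sfrp2, a secreted Wnt modulator, fell 41.7-fold (adjusted p = 1.32e-05), reading 6.16, 6.39 and 6.33 in Tdg-/- MEFs, against 11.53, 11.64 and 11.85 in Tdg+/- MEFs. Its Tdg-/- arrays lay on either side of the olfactory receptor median of 6.29, so the size of this fall is not established. The other Wnt genes past the threshold were Wnt4, with a rise of 2.45-fold (adjusted p = 0.00256), Dkk3, of the Dickkopf family, with a rise of 2.13-fold (adjusted p = 0.00792), and Notum, whose enzyme inactivates Wnt proteins, with a fall of 1.49-fold (adjusted p = 0.0376). Of 36 ligands and antagonists of the TGF-beta and BMP pathways 3 passed (8.33%). The activin-binding protein gene Fst fell 2.5-fold (adjusted p = 0.00358), Bmp4 fell 1.95-fold (adjusted p = 0.00717) and Tgfb1 rose 1.59-fold (adjusted p = 0.0135). Cx3cl1, a membrane-bound chemokine, rose 2.48-fold (adjusted p = 0.00139), with 2 of its 3 probe sets in that direction, whereas the chemokine gene Cxcl10 fell 2.74-fold (adjusted p = 0.0239), Ccl5 1.89-fold (adjusted p = 0.026) and Ccl7 1.84-fold (adjusted p = 0.0142). Il33, a nuclear cytokine released by damaged cells, rose 3.27-fold (adjusted p = 0.00792), with a Tdg+/- mean below 6.29. The guidance ligand Slit2 fell 1.96-fold (adjusted p = 0.0115), its relative Slit3 fell 1.83-fold (adjusted p = 0.0055), and Ntn1, which encodes netrin 1, rose 2.67-fold (adjusted p = 0.00768), with 1 of its 2 probe sets in that direction. Among 67 genes of hormones and peptides 7 passed (10.4%). Of these Adm, adrenomedullin, fell 3.0-fold (adjusted p = 0.00313), Apln, the vascular peptide apelin, fell 1.91-fold (adjusted p = 0.0204), and Stc1, stanniocalcin 1, rose 2.12-fold (adjusted p = 0.00715), also in 1 of 2 probe sets. Notum, Tgfb1, Cxcl10, Ccl7 and Slit2 did not pass when any 1 of Tdg-/- replicates 1, 2 and 3 and Tdg+/- replicate 2 was left out (adjusted p up to 0.21, for Notum). Dkk3 and Bmp4 did not pass when any 1 of Tdg-/- replicates 1, 2 and 3 was left out (adjusted p up to 0.0709, for Dkk3). Ccl5 and Apln did not pass when any 1 of Tdg-/- replicates 1, 2 and 3 and Tdg+/- replicates 2 and 3 was left out (adjusted p up to 0.161, for Ccl5). Stc1 did not pass when Tdg-/- replicate 1 was left out (adjusted p = 0.0585). Slit3 did not pass when any 1 of Tdg-/- replicates 1 and 3 was left out (adjusted p up to 0.056). Ntn1 did not pass when any 1 of Tdg-/- replicates 2 and 3 and Tdg+/- replicate 2 was left out (adjusted p up to 0.0671). Il33 did not pass when any 1 of Tdg-/- replicate 3 and Tdg+/- replicate 2 was left out (adjusted p up to 0.0707). Tgfb1 did not pass with cyclic loess (adjusted p = 0.0542).

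Of 77 cathepsins and serine proteases 3 were called (3.9%, close to the 3.83% over all genes), all of them higher: C1s1, a complement protease, read 8.53, 8.49 and 8.56 in Tdg-/- MEFs, against 7.14, 7.11 and 7.09 in Tdg+/- MEFs, a rise of 2.67-fold (adjusted p = 0.000393), the lysosomal Ctsc rose 3.8-fold (adjusted p = 0.0177) and Htra1 rose 2.09-fold (adjusted p = 0.0126). Mmp2, gelatinase A, rose 1.79-fold (adjusted p = 0.00381) in both of its probe sets, and Mmp3, stromelysin 1, rose 1.4-fold (adjusted p = 0.036) with a Tdg+/- mean just below 6.29, while Adamts1 fell 1.74-fold (adjusted p = 0.0135). The inhibitor genes Timp1, Timp2 and Timp3 had log2 fold changes of 0.14, 0.10 and -0.41 and did not pass. For Timp3 the adjusted p was 0.0521. It passed without Tdg+/- replicate 1 (adjusted p = 0.00115), with quantile normalization (0.0153) and with cyclic loess (0.0127). It did not pass with a replicate block (0.103) or with any other array left out (adjusted p up to 0.245). Lipg, an endothelial lipase of lipoproteins, fell 3.43-fold (adjusted p = 0.000393), with 3 of 3 probe sets in that direction, and Apoe fell 1.51-fold (adjusted p = 0.0165). Cp, ceruloplasmin, the copper-carrying ferroxidase, rose 3.01-fold (adjusted p = 0.0142), in all 7 of its probe sets. Vcan, a large proteoglycan, rose 2.44-fold (adjusted p = 0.0163), while Dcn, decorin, fell 1.6-fold (adjusted p = 0.0207). Fabp5 and Serpinb9, matched to secreted families by symbol but intracellular, rose 2.58-fold (adjusted p = 0.00948) for Fabp5 and 2.27-fold (adjusted p = 0.0135) for Serpinb9. Ctsc, Htra1, Adamts1, Apoe, Cp, Vcan, Dcn, Fabp5 and Serpinb9 did not pass when any 1 of Tdg-/- replicates 1, 2 and 3 and Tdg+/- replicate 2 was left out (adjusted p up to 0.137, for Dcn). Mmp3 did not pass when any 1 of Tdg-/- replicates 1, 2 and 3 and Tdg+/- replicates 2 and 3 was left out (adjusted p up to 0.212).

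**Figure D3:**
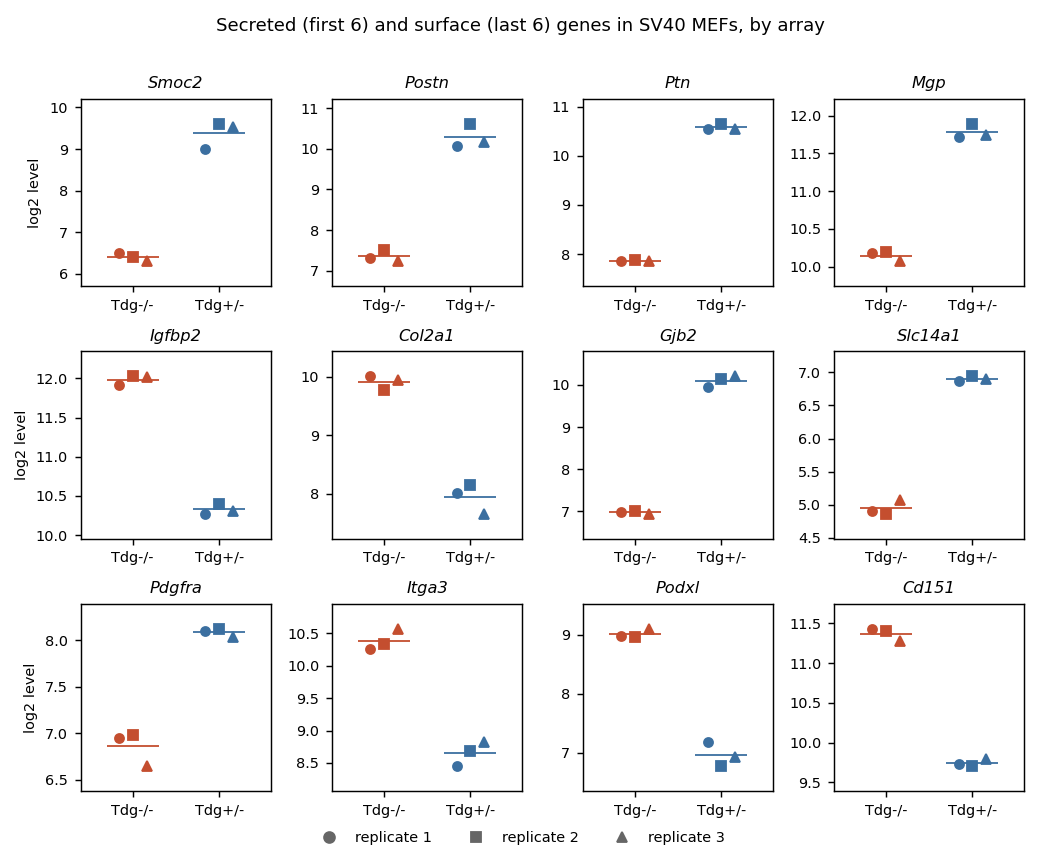
Log2 level of 12 genes on each array, 6 of secreted and 6 of surface proteins, with Tdg-/- MEFs in red on the left and Tdg+/- MEFs in blue on the right of each panel; points are arrays and lines are means of 3, and the axes differ and do not start at 0. In each panel the 3 Tdg-/- arrays lie apart from the 3 Tdg+/- arrays, for example at 7.85 to 7.88 against 10.55 to 10.65 for Ptn. This holds for every gene past the threshold.

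Surface genes rose 39 times and fell 28 times of 1343, and 11 rises and 9 falls passed whichever array was left out. Immunoglobulin adhesion molecules and lectins made up 13 of the rises and 8 of the falls, solute carriers and pumps 9 and 6, and receptors and ligands of the TGF-beta, Wnt and Notch pathways 3 and 6. The median log2 fold change was -0.14, against -0.02 over all genes, and -0.09 without Tdg+/- replicate 1. The median level of the class was 6.90. In that bin of levels the median over genes of all classes was -0.15, and -0.08 without that array. Without Tdg+/- replicate 1, 131 rose and 136 fell. With quantile normalization the split was 38 rises to 42 falls.

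Among adhesion genes the largest rise was that of Cdh2, N-cadherin, at 10.93, 11.02 and 11.23 in Tdg-/- MEFs, against 7.69, 8.37 and 8.87 in Tdg+/- MEFs, or 6.72-fold (adjusted p = 0.00455). Tdg+/- replicate 1 was the lowest array of its group, and the log2 fold change was 2.44 without it. Itga3, an integrin subunit that binds laminin, read 10.26, 10.33 and 10.57 in Tdg-/- MEFs, against 8.45, 8.69 and 8.82 in Tdg+/- MEFs, a rise of 3.33-fold (adjusted p = 0.00144) in all 3 of its probe sets. Cd151, a tetraspanin that associates with laminin-binding integrins, read 11.43, 11.40 and 11.27 in Tdg-/- MEFs, against 9.74, 9.71 and 9.79 in Tdg+/- MEFs, a rise of 3.08-fold (adjusted p = 0.000393) in 4 of its 6 probe sets. The integrin genes Itgb1 and Itga6 did not pass, with log2 fold changes of 0.13 and -0.26, and of 21 integrin subunits Itga3 and Itgb5 passed, with a rise of 1.38-fold (adjusted p = 0.0313) for Itgb5. Podxl, an anti-adhesive sialomucin, read 8.97, 8.96 and 9.10 in Tdg-/- MEFs, against 7.18, 6.77 and 6.94 in Tdg+/- MEFs, a rise of 4.13-fold (adjusted p = 0.000559), and Gpm6b, a proteolipid of neural membranes, rose 5.7-fold (adjusted p = 0.000393). Other immunoglobulin-family adhesion genes that rose were Vcam1 at 2.1-fold (adjusted p = 0.0298), Ncam1 at 1.82-fold (adjusted p = 0.0129), with 4 of its 6 probe sets in that direction, and Cadm1 at 1.56-fold (adjusted p = 0.0384). F11r, a junctional adhesion molecule, fell 1.87-fold (adjusted p = 0.0126) and L1cam fell 1.61-fold (adjusted p = 0.0385). Thy1, the glycolipid-anchored antigen of fibroblasts and thymocytes, read 9.47, 9.45 and 9.47 in Tdg-/- MEFs, against 10.47, 10.73 and 10.72 in Tdg+/- MEFs, a fall of 2.26-fold (adjusted p = 0.00233), and Itm2a fell 2.08-fold (adjusted p = 0.0021). Ncam1, F11r and L1cam did not pass when any 1 of Tdg-/- replicates 1, 2 and 3 and Tdg+/- replicate 2 was left out (adjusted p up to 0.198, for L1cam). Itgb5, Vcam1 and Cadm1 did not pass when any 1 of Tdg-/- replicates 1, 2 and 3 and Tdg+/- replicates 2 and 3 was left out (adjusted p up to 0.209, for Itgb5). Itgb5 and Cadm1 did not pass with quantile normalization (adjusted p up to 0.0933). Itgb5 and Cadm1 did not pass with cyclic loess (adjusted p up to 0.0975).

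Of 44 genes of gap, tight and desmosomal junctions 3 rose and 1 fell (9.09% called, against 3.83% over all genes). Gjb2, connexin 26, a gap junction channel, read 7.00, 7.00 and 6.95 in Tdg-/- MEFs, against 9.94, 10.14 and 10.20 in Tdg+/- MEFs, a fall of 8.65-fold (adjusted p = 5.67e-05) with a gap of 2.94, while Gja1, connexin 43, had a log2 fold change of -0.05 with an SE of 0.18 (adjusted p = 0.858) and did not pass. The rises were desmosomal plaque genes. Dsp, desmoplakin, which ties desmosomes to intermediate filaments, read 6.99, 7.29 and 7.50 in Tdg-/- MEFs, against 5.34, 5.67 and 5.66 in Tdg+/- MEFs, a rise of 3.25-fold (adjusted p = 0.00338) in all 3 probe sets, with every Tdg+/- array below 6.29. Pkp2, plakophilin 2, rose 2.84-fold (adjusted p = 0.000393), with 3 of 4 probe sets in that direction, and Pkp1 rose 1.83-fold (adjusted p = 0.0148). On a desmosome list of 12 genes drawn up after the calls were seen, 10 were measured and the other 7 did not pass, among them Jup at 0.26 with an SE of 0.12 (adjusted p = 0.251) and the desmosomal cadherin Dsg2 at 0.07 with an SE of 0.08 (adjusted p = 0.594), with means of 6.26 and 6.19, under the olfactory receptor median. The share of this list called was 30.0%, against 3.83% over all genes. Pkp1 did not pass when any 1 of Tdg-/- replicates 1, 2 and 3 was left out (adjusted p up to 0.11).

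The family of TGF-beta, Wnt and Notch receptors and ligands gave 6 falls and 3 rises among 52 (17.3% called, against 3.83% over all genes). Dlk1, a transmembrane protein of the Notch ligand type, fell 2.85-fold (adjusted p = 0.00127), and Gpc3, a glypican that modulates Hedgehog and Wnt signals, read 7.15, 6.91 and 6.82 in Tdg-/- MEFs, against 8.38, 8.45 and 8.37 in Tdg+/- MEFs, a fall of 2.72-fold (adjusted p = 0.00144). Gas1, a Hedgehog coreceptor, read 9.97, 10.02 and 10.04 in Tdg-/- MEFs, against 11.03, 11.17 and 11.27 in Tdg+/- MEFs, a fall of 2.21-fold (adjusted p = 0.00202). Neither Gpc1 nor Gpc4 passed, with log2 fold changes of 0.24 and -0.13. Tgfbr3, betaglycan, fell 1.81-fold (adjusted p = 0.00613), and the activin receptor gene Acvr1b rose 1.91-fold (adjusted p = 0.0172), with 1 of its 2 probe sets in that direction. Tnfrsf11b, osteoprotegerin, a secreted decoy receptor grouped with the cytokine receptors by symbol, read 8.88, 9.00 and 8.63 in Tdg-/- MEFs, against 6.34, 7.09 and 6.82 in Tdg+/- MEFs, a rise of 4.24-fold (adjusted p = 0.00381). The following genes also lie outside the 52 of that family. Lifr, the receptor of leukemia inhibitory factor, fell 2.21-fold (adjusted p = 0.0366) and Il13ra1 1.72-fold (adjusted p = 0.0264). Kdr, the receptor of VEGF-A, fell 1.5-fold (adjusted p = 0.0338) and Epha4 rose 2.11-fold (adjusted p = 0.0112). Of 156 G-protein-coupled receptors 1 passed (0.641%), Ptger4, a prostaglandin E2 receptor, with a rise of 1.55-fold (adjusted p = 0.0488) that did not pass when all probe sets were fitted. Of 38 genes of antigen presentation none passed, and with so few genes this was not tested against the 3.83% over all genes. Lifr, Il13ra1, Kdr and Ptger4 did not pass when any 1 of Tdg-/- replicates 1, 2 and 3 and Tdg+/- replicates 2 and 3 was left out (adjusted p up to 0.241, for Ptger4). Epha4 did not pass when any 1 of Tdg-/- replicates 1 and 2 was left out (adjusted p up to 0.0825). Acvr1b did not pass when any 1 of Tdg-/- replicates 1, 2 and 3 and Tdg+/- replicate 2 was left out (adjusted p up to 0.095). Tgfbr3 did not pass when any 1 of Tdg-/- replicates 1 and 3 was left out (adjusted p up to 0.058). Ptger4 did not pass with quantile normalization (adjusted p = 0.0663).

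Solute carriers and pumps, the largest surface family with 371 genes, rose 9 times and fell 6 times (4.04% called, against 3.83% over all genes). Slc14a1, a urea transporter, read 4.91, 4.87 and 5.07 in Tdg-/- MEFs, against 6.87, 6.94 and 6.89 in Tdg+/- MEFs, a fall of 3.87-fold (adjusted p = 0.000393), below 6.29 in Tdg-/- MEFs. Slc22a23, an organic ion transporter of unsettled substrate, read 8.29, 8.41 and 8.47 in Tdg-/- MEFs, against 6.38, 6.58 and 6.59 in Tdg+/- MEFs, a rise of 3.66-fold (adjusted p = 0.000393). Slc29a1, an equilibrative nucleoside transporter, rose 2.13-fold (adjusted p = 0.00453), and the taurine transporter gene Slc6a6 rose 1.97-fold (adjusted p = 0.00388), with 1 of its 3 probe sets in that direction. Ank, a transporter in pyrophosphate export, rose 2.23-fold (adjusted p = 0.00633), Vldlr, a lipoprotein receptor, 2.35-fold (adjusted p = 0.00726) and the transferrin receptor gene Tfrc 1.59-fold (adjusted p = 0.0283) (5 of 6 probe sets in that direction), while Slc38a4, an amino acid transporter, fell 2.49-fold (adjusted p = 0.00797). The glucose transporter gene Slc2a1 had a log2 fold change of 0.42 with an SE of 0.10 (adjusted p = 0.0776) and did not pass. Ion channels passed in 6 of 221 cases (2.71%): the water channel gene Aqp5 rose 2.13-fold (adjusted p = 0.00939) while Aqp1 fell 2.4-fold (adjusted p = 0.0234), the chloride transporter gene Clcn3 rose 1.77-fold (adjusted p = 0.00635), and Kcnab1, of a potassium channel subunit, rose 2.52-fold (adjusted p = 0.0385). Bst2, tetherin, which holds budding viruses at the cell surface, read 7.04, 7.10 and 7.22 in Tdg-/- MEFs, against 8.51, 8.49 and 8.65 in Tdg+/- MEFs, a fall of 2.69-fold (adjusted p = 0.000836). Vldlr, Tfrc, Aqp5 and Kcnab1 did not pass when any 1 of Tdg-/- replicates 1, 2 and 3 and Tdg+/- replicate 2 was left out (adjusted p up to 0.203, for Kcnab1). Ank did not pass when any 1 of Tdg-/- replicates 1, 2 and 3 was left out (adjusted p up to 0.057). Aqp1 did not pass when any 1 of Tdg-/- replicates 1, 2 and 3 and Tdg+/- replicates 2 and 3 was left out (adjusted p up to 0.143). Clcn3 did not pass when any 1 of Tdg-/- replicates 2 and 3 was left out (adjusted p up to 0.0664). Slc38a4 did not pass when any 1 of Tdg-/- replicates 2 and 3 and Tdg+/- replicate 2 was left out (adjusted p up to 0.0719).

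**Figure D4:**
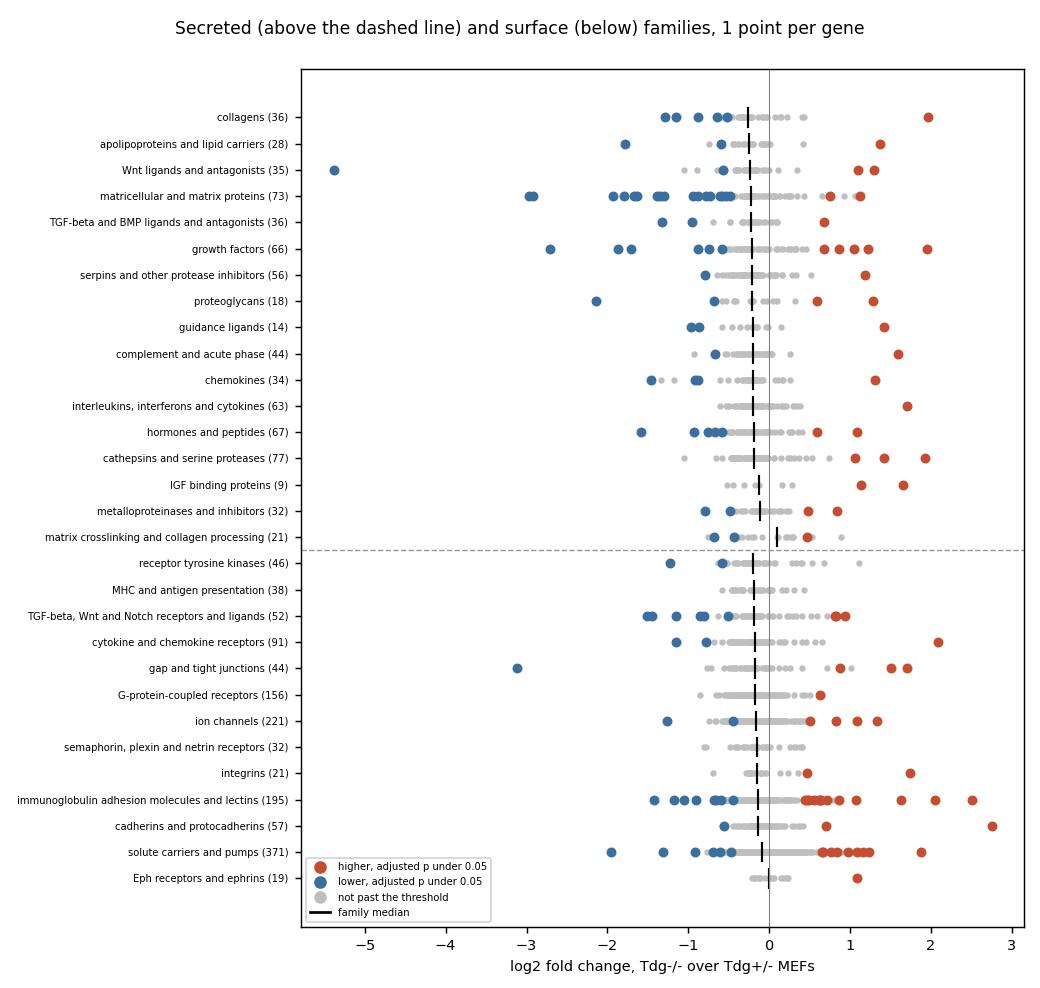
Log2 fold change (Tdg-/- over Tdg+/- MEFs) of each gene of the 17 secreted and 13 surface families, with genes past the limma threshold in red (higher) and blue (lower), others in grey, and the family median as a bar; the number of genes is in brackets. Falls past the threshold are most frequent among matricellular and matrix proteins (17 of 73), and nearly all family medians lie a little below 0, with -0.02 over all genes. The median level was 6.88 for secreted and 6.90 for surface genes, in the range where Tdg+/- replicate 1 read high.

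Metabolic genes rose 43 times and fell 8 times of 1068 (4.78% called, against 3.83% over all genes), but 2 rises and 2 falls passed whichever array was left out. Pdk4, the kinase that switches off pyruvate dehydrogenase, read 7.83, 7.84 and 7.83 in Tdg-/- MEFs, against 5.72, 5.87 and 6.18 in Tdg+/- MEFs, a rise of 3.76-fold (adjusted p = 0.000932); its Tdg+/- arrays lay under 6.29. Ckb, creatine kinase of brain type, read 9.82, 9.90 and 10.05 in Tdg-/- MEFs, against 8.45, 8.54 and 8.60 in Tdg+/- MEFs, a rise of 2.62-fold (adjusted p = 0.00106). Cdo1, which oxidises cysteine on the way to taurine, read 6.86, 6.82 and 6.93 in Tdg-/- MEFs, against 8.56, 8.91 and 8.57 in Tdg+/- MEFs, a fall of 3.5-fold (adjusted p = 0.000836). Crabp2, a retinoic acid carrier grouped with retinoid genes, read 6.59, 6.68 and 6.56 in Tdg-/- MEFs, against 8.20, 8.30 and 8.39 in Tdg+/- MEFs, a fall of 3.22-fold (adjusted p = 0.000393). In all 4 the groups did not overlap, as in all 475 genes past the threshold and in 39.5% of the genes tested. With quantile normalization 40 metabolic genes rose and 15 fell, and without Tdg+/- replicate 1, 202 rose and 67 fell.

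Genes of glycolysis and the pentose phosphate path rose 10 times of 69 (14.5%, against 2.52% over all genes), with none lower. With Tdg+/- replicate 1 left out, 24 rose and 4 fell (40.6% called, against 22.0% over all genes). A list of the enzymes between glucose and lactate, drawn up after the calls were seen, had 16 measured members, of which 7 rose, none fell and 9 did not pass; their median log2 fold change was 0.42 with all arrays and 0.41 without Tdg+/- replicate 1. Eno3, the muscle enolase, read 8.83, 8.99 and 9.32 in Tdg-/- MEFs, against 7.78, 7.59 and 7.87 in Tdg+/- MEFs, a rise of 2.46-fold (adjusted p = 0.00717). Aldoa rose 1.7-fold (adjusted p = 0.0148) in all 4 of its probe sets, Pfkl 1.71-fold (adjusted p = 0.0281), Ldha 1.48-fold (adjusted p = 0.0155) and Pgk1 1.34-fold (adjusted p = 0.0405). Hk1 and Hk2 had log2 fold changes of 0.57 and 0.25, and Gapdh and Pkm of 0.25 and 0.28, none past the threshold with all arrays. In the fit without Tdg+/- replicate 1, Hk1, Gapdh and Pkm passed (adjusted p = 0.00191, 0.0369 and 0.0474) and Hk2 did not (adjusted p = 0.806). The median level of the 16 genes was 9.96, in the bin of levels where the median over all genes was 0.19 with all arrays and 0.08 without Tdg+/- replicate 1. Aldoa, Pfkl and Ldha did not pass when any 1 of Tdg-/- replicates 1, 2 and 3 and Tdg+/- replicate 2 was left out (adjusted p up to 0.172, for Pfkl). Pgk1 did not pass when any 1 of Tdg-/- replicates 1, 2 and 3 and Tdg+/- replicates 2 and 3 was left out (adjusted p up to 0.238). Eno3 did not pass when Tdg-/- replicate 2 was left out (adjusted p = 0.0533).

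In mitochondria, the tricarboxylic acid cycle and respiratory chain rose in 5 of 115 cases (4.35%, against 2.52% over all genes) with none lower, and their median level of 10.47 lay where Tdg+/- replicate 1 read low. With that array left out, 29 rose and 3 fell (27.8% called, against 22.0% over all genes). Among the 5 were Cox7a2l, a factor of respiratory supercomplexes, at 1.7-fold (adjusted p = 0.00639) in all 3 probe sets, Uqcrc2 at 1.74-fold (adjusted p = 0.0407) and Idh1, the cytosolic isocitrate dehydrogenase, at 1.66-fold (adjusted p = 0.0184). Fatty acid and phospholipid genes rose in 5 of 168 cases with none lower, and their share called, 2.98%, was below the 3.83% over all genes. With Tdg+/- replicate 1 left out, 38 rose and 7 fell (26.8% called, against 22.0% over all genes). Plin2, which coats lipid droplets, read 11.67, 11.69 and 11.78 in Tdg-/- MEFs, against 10.18, 10.53 and 10.64 in Tdg+/- MEFs, a rise of 2.4-fold (adjusted p = 0.00504), Acsl5 rose 1.67-fold (adjusted p = 0.0387) and the desaturase gene Fads1 1.66-fold (adjusted p = 0.0177). Mt1, a metal-binding metallothionein, rose 1.57-fold (adjusted p = 0.0342), with 1 of its 2 probe sets in that direction. Glycosylation and sulfation genes rose 7 times and fell 2 times among 197 (4.57% called, against 3.83%): St6gal1, which caps glycans with sialic acid, rose 2.17-fold (adjusted p = 0.0385), and Hs3st1, a heparan sulfate sulfotransferase, fell 1.75-fold (adjusted p = 0.00792). Bckdhb, of branched-chain amino acid breakdown, fell 2.02-fold (adjusted p = 0.0138), and Gpt2, a mitochondrial alanine transaminase, rose 1.7-fold (adjusted p = 0.0165). Stard13, matched to the sterol genes by symbol only, fell 1.36-fold (adjusted p = 0.0397). Idh1, Acsl5, St6gal1, Bckdhb and Gpt2 did not pass when any 1 of Tdg-/- replicates 1, 2 and 3 and Tdg+/- replicate 2 was left out (adjusted p up to 0.205, for Acsl5). Uqcrc2, Mt1 and Stard13 did not pass when any 1 of Tdg-/- replicates 1, 2 and 3 and Tdg+/- replicates 2 and 3 was left out (adjusted p up to 0.23, for Stard13). Fads1 and Hs3st1 did not pass when any 1 of Tdg-/- replicates 1, 2 and 3 was left out (adjusted p up to 0.137, for Fads1). Cox7a2l did not pass when any 1 of Tdg-/- replicates 2 and 3 was left out (adjusted p up to 0.0705). Plin2 did not pass when Tdg-/- replicate 3 was left out (adjusted p = 0.0504). St6gal1 did not pass with quantile normalization (adjusted p = 0.0566).

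Signalling genes rose 25 times and fell 19 times of 1025, with quantile normalization 30 and 35 times, and 1 rise and 4 falls passed whichever array was left out. Pde8a, a cyclic AMP phosphodiesterase, read 9.70, 9.75 and 9.74 in Tdg-/- MEFs, against 7.49, 8.14 and 8.04 in Tdg+/- MEFs, a rise of 3.57-fold (adjusted p = 0.00326). Arhgdib read 9.01, 8.94 and 9.09 in Tdg-/- MEFs, against 10.03, 10.25 and 10.20 in Tdg+/- MEFs, a fall of 2.22-fold (adjusted p = 0.00218). Capn6, a calpain without protease activity, read 7.29, 7.24 and 7.20 in Tdg-/- MEFs, against 8.63, 8.76 and 8.62 in Tdg+/- MEFs, a fall of 2.7-fold (adjusted p = 0.000559) in both probe sets. Calml4, a calmodulin-like gene, fell 2.1-fold (adjusted p = 0.0031), with a mean of 5.47 in Tdg-/- MEFs. Rcan2, an inhibitor of calcineurin, fell 3.29-fold (adjusted p = 0.00727) and Mtm1, the phosphoinositide phosphatase myotubularin, fell 2.95-fold (adjusted p = 0.00504), with 2 of its 3 probe sets in that direction. Rnd3 fell 2.08-fold (adjusted p = 0.0108), and Gng12, a G protein gamma subunit, 1.87-fold (adjusted p = 0.00453). Mtm1 and Gng12 did not pass when Tdg-/- replicate 3 was left out (adjusted p up to 0.0504, for Mtm1). Rcan2 did not pass when any 1 of Tdg-/- replicates 1, 2 and 3 was left out (adjusted p up to 0.058). Rnd3 did not pass when any 1 of Tdg-/- replicates 1, 2 and 3 and Tdg+/- replicate 2 was left out (adjusted p up to 0.0763).

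Feedback regulators of the MAP kinase cascade moved both ways. Dusp1, a phosphatase of MAP kinases, rose 2.4-fold (adjusted p = 0.0135), while Spry1, an inhibitor of receptor tyrosine kinase signals, fell 1.64-fold (adjusted p = 0.0172) and Dusp7 fell 1.39-fold (adjusted p = 0.0267). Sos2, an activator of Ras, rose 2.28-fold (adjusted p = 0.0298), with a Tdg+/- mean below 6.29, and Rras rose 1.58-fold (adjusted p = 0.00805). Adaptors and phosphatases of tyrosine kinase pathways rose in 6 of 182 cases with none lower, a share called of 3.3%, against 3.83% over all genes. With Tdg+/- replicate 1 left out, 27 rose and 13 fell (22.0% called, as over all genes). Among the 6 were Sh3d19 at 3.4-fold (adjusted p = 0.0243), with 3 of its 4 probe sets in that direction, Sh3kbp1 at 2.04-fold (adjusted p = 0.0363) and the receptor phosphatase gene Ptprd at 2.0-fold (adjusted p = 0.025). Plekha1, which binds phosphoinositides, rose 2.06-fold (adjusted p = 0.0173). Dact1, a modulator of Wnt signals, fell 1.74-fold (adjusted p = 0.0128) and Ctnnbip1, an inhibitor of beta-catenin, rose 1.61-fold (adjusted p = 0.0384). None of these passed whichever array was left out. Dusp1, Spry1, Sos2, Rras, Sh3d19, Sh3kbp1, Plekha1 and Dact1 did not pass when any 1 of Tdg-/- replicates 1, 2 and 3 and Tdg+/- replicate 2 was left out (adjusted p up to 0.194, for Sh3kbp1). Dusp7, Ptprd and Ctnnbip1 did not pass when any 1 of Tdg-/- replicates 1, 2 and 3 and Tdg+/- replicates 2 and 3 was left out (adjusted p up to 0.203, for Ctnnbip1).

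Innate immune and interferon genes fell 7 times and rose 2 times among 165, which is 4.24% lower and 1.21% higher, against 1.32% and 2.52% over all genes. Usp18, which removes ISG15 from proteins and dampens the interferon receptor, read 6.30, 5.99 and 5.98 in Tdg-/- MEFs, against 7.63, 8.01 and 8.07 in Tdg+/- MEFs, a fall of 3.51-fold (adjusted p = 0.00218), and its Tdg-/- mean lay below 6.29. Ifit1, which binds foreign RNA caps, read 6.33, 6.12 and 6.25 in Tdg-/- MEFs, against 7.38, 8.41 and 8.42 in Tdg+/- MEFs, a fall of 3.57-fold (adjusted p = 0.0207), also with a Tdg-/- mean below 6.29; Tdg+/- replicate 1 was the lowest of its group, and the log2 fold change without it was -2.18. Oasl2 fell 2.34-fold (adjusted p = 0.00609), Irf9, a subunit of the interferon-activated transcription factor, 1.86-fold (adjusted p = 0.0385), the antiviral membrane protein gene Ifitm3 1.69-fold (adjusted p = 0.0119), Irgm2 1.53-fold (adjusted p = 0.0353) and Ifit3 1.51-fold (adjusted p = 0.0434), the last not past the threshold when all probe sets were fitted. The Tdg-/- means of Oasl2 and Irgm2 lay below 6.29 as well. Irf7 had a log2 fold change of -0.72 with an SE of 0.33 (adjusted p = 0.247) and did not pass. The NF-kappaB inhibitor gene Nfkbia rose 1.57-fold (adjusted p = 0.0078), with 3 of its 4 probe sets in that direction, and the kinase gene Ripk4 was 1.94-fold higher (adjusted p = 0.0142) with both means under 6.29, so that its expression was not established. Ifit1, Irf9, Ifitm3, Nfkbia and Ripk4 did not pass when any 1 of Tdg-/- replicates 1, 2 and 3 and Tdg+/- replicate 2 was left out (adjusted p up to 0.205, for Irf9). Irgm2 and Ifit3 did not pass when any 1 of Tdg-/- replicates 1, 2 and 3 and Tdg+/- replicates 2 and 3 was left out (adjusted p up to 0.23, for Ifit3). Oasl2 did not pass when any 1 of Tdg-/- replicates 2 and 3 was left out (adjusted p up to 0.0583). Ifit3 did not pass with quantile normalization (adjusted p = 0.0811). Ifit3 did not pass with cyclic loess (adjusted p = 0.0848).

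The promoters of Ifit1 and Bst2 are shown because they hold the letters of an interferon-stimulated response element, TTTCNNTTTC or on the other strand GAAANNGAAA, in capitals; both are the 250 bases before the RefSeq start on GRCm38.p6, 5′ to 3′ on the gene's strand, and matches may overlap.
Ifit1 promoter, chr19:34640639-34640888, plus strand: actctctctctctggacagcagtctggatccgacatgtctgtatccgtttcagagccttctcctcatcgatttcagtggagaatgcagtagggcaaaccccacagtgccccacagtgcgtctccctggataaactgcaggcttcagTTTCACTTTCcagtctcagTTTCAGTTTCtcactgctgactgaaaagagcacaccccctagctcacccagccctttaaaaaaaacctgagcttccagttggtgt
Bst2 promoter, chr8:71537473-71537722, minus strand: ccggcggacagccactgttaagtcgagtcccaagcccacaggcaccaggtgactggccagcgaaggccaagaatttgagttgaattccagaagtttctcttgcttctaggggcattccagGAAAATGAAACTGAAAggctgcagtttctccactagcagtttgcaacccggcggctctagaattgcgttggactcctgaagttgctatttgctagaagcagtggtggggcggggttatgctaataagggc

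These letters occurred in 2.85% of the 7936 windows of tested genes. They were in 10 of 93 windows of genes that fell (10.8%) and in 4 of 188 of genes that rose (2.13%). In the innate immune and interferon family 18 of 100 windows held them, and of 5 windows of its fallen members 3 did, those of Ifit1, Ifit3 and Irgm2; Bst2, Cxcl10, Capn6, Eomes, Tm4sf1, Sqor and Plod3 were the other fallen genes with a match. A match is a description of the letters and was not tested. The calls of Ifit1, Ifit3 and Irgm2 depend on single arrays as given above. Neither Plod3 nor Ifit3 passed when all probe sets were fitted. Eomes, Tm4sf1, Sqor and Plod3 did not pass when any 1 of Tdg-/- replicates 1, 2 and 3 and Tdg+/- replicates 2 and 3 was left out (adjusted p up to 0.26, for Plod3). Cxcl10 did not pass when any 1 of Tdg-/- replicates 1, 2 and 3 and Tdg+/- replicate 2 was left out (adjusted p up to 0.146). 

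**Figure D5:**
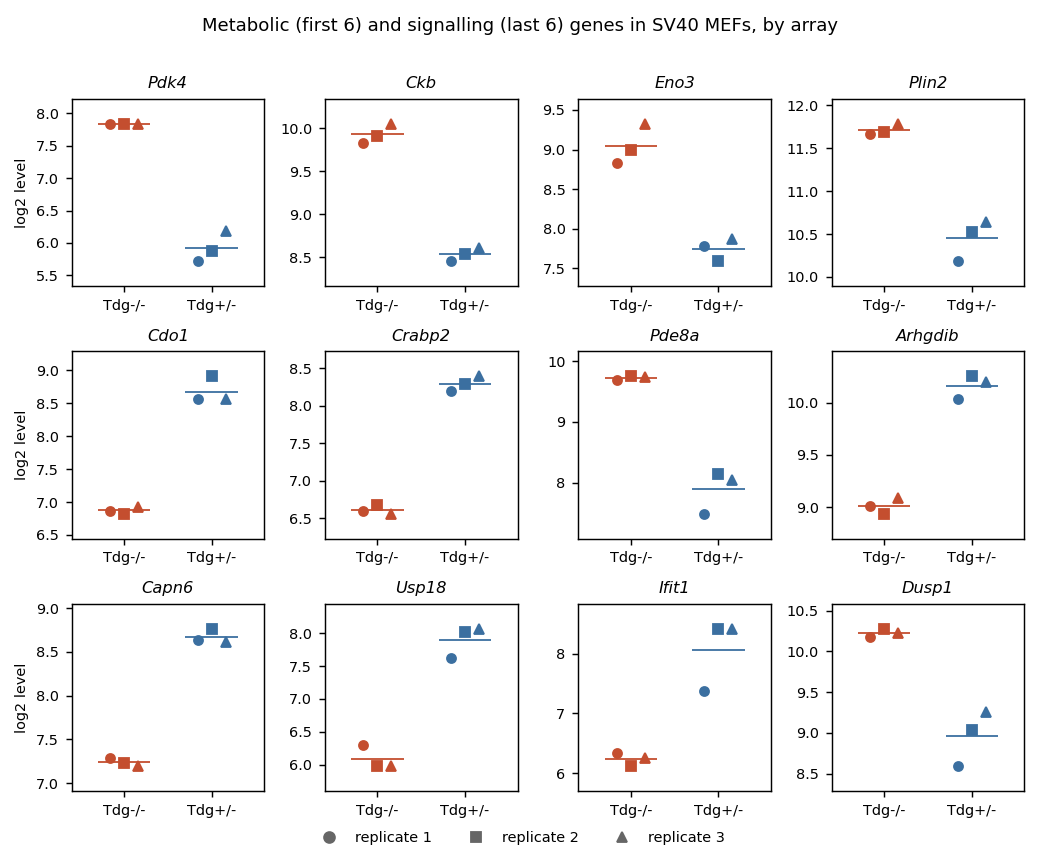
Log2 level of 12 genes on each array, 6 of metabolism and 6 of signalling, with Tdg-/- MEFs in red on the left and Tdg+/- MEFs in blue on the right of each panel; points are arrays and lines are means of 3, and the axes differ and do not start at 0. The groups do not overlap in any panel, as in every gene past the threshold. Tdg+/- replicate 1 (circle) lies lowest of its group in every panel except those of Eno3 and Capn6.

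Cytoskeletal genes rose 15 times and fell 6 times of 341, and 5 rises passed whichever array was left out. With quantile normalization 13 rose and 9 fell. Csrp2, a LIM protein of smooth muscle and stellate cells, read 10.24, 10.36 and 10.33 in Tdg-/- MEFs, against 7.53, 8.20 and 8.31 in Tdg+/- MEFs, a rise of 4.91-fold (adjusted p = 0.00256), with Tdg+/- replicate 1 the lowest array and a log2 fold change of 2.06 without it. Epb41l4a, of the band 4.1 family, rose 2.66-fold (adjusted p = 0.00119), the LIM protein gene Crip2 2.48-fold (adjusted p = 0.00144), Nes, the intermediate filament nestin, 1.9-fold (adjusted p = 0.00504), and Mical2, an oxidase of actin, 1.88-fold (adjusted p = 0.00418). A rise of Nes was seen in 1 of its 3 probe sets. Tubb2b, a beta-tubulin of neurons, rose 3.28-fold (adjusted p = 0.0177), with a Tdg+/- mean below 6.29. Krt19 read 6.89, 7.46 and 8.01 in Tdg-/- MEFs, against 9.64, 9.77 and 10.14 in Tdg+/- MEFs, a fall of 5.27-fold (adjusted p = 0.00779), while its epithelial partners Krt8 and Krt18 had log2 fold changes of -0.14 and 0.12 and did not pass. Cnn1, calponin of smooth muscle, fell 1.83-fold (adjusted p = 0.00455), and the contractile genes Acta2 and Tagln did not pass, at 0.13 and -0.11. Tubb2b did not pass when any 1 of Tdg-/- replicates 1, 2 and 3 and Tdg+/- replicate 2 was left out (adjusted p up to 0.116). Krt19 did not pass when any 1 of Tdg-/- replicate 2 and Tdg+/- replicate 2 was left out (adjusted p up to 0.0584). Cnn1 did not pass when Tdg-/- replicate 3 was left out (adjusted p = 0.0504).

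Among genes of no class, 135 rose and 34 fell of 7206 (153 and 79 with quantile normalization). Stress proteins were among the rises: the small heat shock protein gene Hspb8 read 9.06, 9.24 and 9.18 in Tdg-/- MEFs, against 7.63, 7.72 and 7.88 in Tdg+/- MEFs, a rise of 2.67-fold (adjusted p = 0.00125), Hspa4l, of the HSP110 family, rose 1.97-fold (adjusted p = 0.00313) in both probe sets, and Nupr1, a stress-induced chromatin protein, read 9.19, 9.23 and 9.19 in Tdg-/- MEFs, against 8.22, 8.14 and 8.12 in Tdg+/- MEFs, a rise of 2.06-fold (adjusted p = 0.00148). Bpgm, which makes 2,3-bisphosphoglycerate, rose 2.36-fold (adjusted p = 0.00204) in all 3 probe sets. Klhl13, a substrate adaptor of a ubiquitin ligase, rose 2.72-fold (adjusted p = 0.00144), with a Tdg+/- mean below 6.29, and Enc1, an actin-binding kelch protein of neurons, 1.88-fold (adjusted p = 0.00381). Cavin2, a coat protein of caveolae, read 9.98, 10.04 and 10.18 in Tdg-/- MEFs, against 11.26, 11.35 and 11.64 in Tdg+/- MEFs, a fall of 2.54-fold (adjusted p = 0.00313), and Gask1b, a Golgi-associated kinase-like gene, fell 2.55-fold (adjusted p = 0.00248). Fap, a surface protease of activated fibroblasts, fell 2.49-fold (adjusted p = 0.00779), to a mean below 6.29. All of these but Fap passed whichever array was left out. Fap did not pass when any 1 of Tdg-/- replicates 1, 2 and 3 and Tdg+/- replicate 2 was left out (adjusted p up to 0.0695).

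Nuclear genes rose 26 times and fell 16 times of 702, and 28 and 29 times with quantile normalization; 7 rises and 7 falls passed whichever array was left out. Besides the rise of Sox2 (13.4-fold) and En2 (8.07-fold) and the fall of Hoxd13 (3.7-fold), these were rises of Satb1, a chromatin organiser, by 3.11-fold (adjusted p = 0.00169), of Foxa1 by 2.33-fold (adjusted p = 0.00433), of Foxd1 by 1.94-fold (adjusted p = 0.0042), of Foxa2 by 2.77-fold and of En1 by 2.15-fold. The falls were those of Gata3 by 3.12-fold, Plagl1 by 3.09-fold, Osr2 by 2.8-fold, Tbx15 by 2.71-fold, Hoxa10 by 2.3-fold and Twist2 by 1.95-fold, with Hoxa10 under 6.29 in both genotypes. Means of Sox2, En2, En1, Satb1, Foxa1 and Foxd1 were under 6.29 in Tdg+/- MEFs, and those of Hoxd13 and Osr2 in Tdg-/- MEFs. Genes outside development also passed: the aryl hydrocarbon receptor gene Ahr rose 2.56-fold (adjusted p = 0.0137), with 1 of its 2 probe sets in that direction, the circadian repressor gene Bhlhe40 rose 2.02-fold (adjusted p = 0.0277), Atf5, a stress-response factor, rose 1.7-fold (adjusted p = 0.0135), Hmga2, an architectural chromatin protein, fell 1.7-fold (adjusted p = 0.00527) and Cdkn1c, a cyclin-dependent kinase inhibitor, fell 1.73-fold (adjusted p = 0.022). Ahr and Atf5 did not pass when any 1 of Tdg-/- replicates 1, 2 and 3 and Tdg+/- replicate 2 was left out (adjusted p up to 0.105, for Atf5). Cdkn1c did not pass when any 1 of Tdg-/- replicates 1, 2 and 3 and Tdg+/- replicates 2 and 3 was left out (adjusted p up to 0.14). Bhlhe40 did not pass when any 1 of Tdg-/- replicates 1, 2 and 3 and Tdg+/- replicate 3 was left out (adjusted p up to 0.161). Hmga2 did not pass when any 1 of Tdg-/- replicates 2 and 3 was left out (adjusted p up to 0.0622).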

How the data were processed

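Transcripts of 6 MEF samples (MEF_KO, Tdg-/-; MEF_het, Tdg+/-; 3 each) were measured on Affymetrix arrays. The authors deposited log2 values per probe set; per the submitters' processing notes MAS5, RMA, affy and limma were used, without saying which made these values. The values were used as deposited, with array medians of 7.38 to 7.42. Of 22690 probe sets, 20393 had 1 gene symbol in the platform annotation, 691 several and 1606 none; 20364 were matched to the RefSeq gene table (GRCm38.p6) for current symbols. Each of 12394 genes was represented by its probe set with the highest mean, except Tdg, read from a fit over all probe sets.

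Groups were compared with limma 3.58.1 (lmFit and eBayes) in R 4.3.3, with Benjamini-Hochberg adjustment over all genes and a threshold of 0.05. The procedure was tested on simulated data. Classes and families came from patterns in gene symbols and hold misfits, named where met. The members, classes and lists were chosen with earlier results of these data known. Named genes were Tdg, up to 6 rises and 6 falls per class, up to 4 changed members per family, the fibroblast markers, and, chosen after their values were seen, genes that passed whichever array was left out and members of the elastic fibre, basement membrane, desmosome, PDGF and glycolysis lists; any other gene named was also chosen after its values were seen. There was no detection filter, and folds of dim genes may be understated. No 2 arrays were alike in all values. Alternatives were other normalizations, filters, a replicate block and leaving out each array. Promoter windows are RefSeq sequences.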

Additional observations from a re-analysis of the deposited data

How the results depend on the processing

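No gene called with all arrays changed direction with quantile normalization or cyclic loess. In the other settings no direction could change. The groups did not overlap in any of the 475 genes, so leaving out 1 array could not reverse a difference. The variance prior, the level filter and the replicate block leave the fold change as it was. Of the 475 genes, 401 also passed with quantile normalization, 404 with cyclic loess, 449 with a trended and robust variance prior, 475 without MEF_het replicate 1, 324 and 129 without MEF_het replicates 3 and 2, and 95 to 116 without 1 MEF_KO array. The total was 740 with cyclic loess, against 603 with quantile normalization and 475 as deposited, and 147 changed at least 2-fold. Cyclic loess gave 312 genes of no class, 65 nuclear and 77 signalling genes (169, 42 and 44 as deposited). The 2-fold limit left 5 cytoskeletal, 9 metabolic, 28 of no class, 21 nuclear, 40 secreted (20 higher and 20 lower), 16 signalling and 28 surface genes. With genes under the median level left out, 32 cytoskeletal genes passed and the total split was 447 higher and 143 lower. Leaving out 1 array gave totals of 95 to 2722: 6 to 83 cytoskeletal, 5 to 269 metabolic, 17 to 1450 of no class, 14 to 190 nuclear, 27 to 194 secreted, 5 to 269 signalling and 21 to 267 surface genes, each with the most calls without MEF_het replicate 1. The Tdg probe set with the fall of 4.79-fold had log2 fold changes of -2.52 to -2.10 with 1 array left out, and of -2.23 without MEF_KO replicate 3 (adjusted p = 0.0524). The cause of these differences was not tested.

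With a replicate block 237 genes passed, 231 of them among the 475: 9 cytoskeletal, 18 metabolic, 61 of no class, 27 nuclear, 56 secreted (25 higher and 31 lower), 25 signalling and 41 surface genes. Whether same-numbered arrays shared more than a number is not in the labels and was not tested. Their deviations from the group means correlated at 0.33, 0.00757 and 0.366. Every array correlated best with its own number except MEF_het replicate 2, which correlated best with MEF_KO replicate 3 (0.15). As limits, the 6 arrays hold 1 clone per genotype, the replicates may be technical, no detection call goes with the values, and 8 of the 475 genes lay below the olfactory receptor median of 6.29 in both genotypes, so that their expression was not established.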

Other observations

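Genes of no class that passed whichever array was left out, and are not described above, included Mxra8, an adhesion protein of the cell surface, at 1.83-fold higher, Snap91, a clathrin adaptor of synapses, at 2.05-fold higher, and Rps25, a ribosomal protein gene, at 2.22-fold higher in Tdg-/- MEFs. Tmem35a, a chaperone of nicotinic receptors, was 2.76-fold higher. Mab21l1, a gene of eye and craniofacial development, was 1.92-fold lower, with a Tdg-/- mean below 6.29.

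The share of genes past the threshold ran from 2.33% on chromosome 8 to 6.31% on chromosome 18 among the autosomes and chromosome X, against 3.83% over all genes. On chromosome 18, 11 genes were higher and 8 lower of 301. On chromosome 7, 42 of 958 genes were higher (4.38%) and 7 lower (0.731%) in Tdg-/- MEFs, against 2.52% and 1.32% over all genes, and without MEF_het replicate 1 these counts were 229 and 39. Without that array the share called ran from 14.7% on chromosome 8 to 29.2% on chromosome 1, where 153 genes were higher and 54 lower. Copy number was not measured here, and the differences between chromosomes were not tested.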
